A study of Homo sapiens with 9 samples.

Results

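A set of 9 genes of the NRF2 antioxidant pathway was examined in HCT116 cells that carried an overexpression plasmid for the long non-coding RNA CRLM1. The members were taken by symbol, as NFE2L2, KEAP1, GCLC, GCLM, GSR, TXNRD1, SRXN1, NQO1 and OSGIN1, and all 9 of 9 were found among the 31558 genes of the count table. HCT116 is an established human colorectal cancer cell line, and polyA RNA of 3 groups with 3 biological replicates each was sequenced as 151 nt read pairs. In the CRLM1-OE group the cells overexpressed CRLM1 (LINC01767) from the pTSB vector, in the Ctrl group they carried the empty plasmid, and in the Anti group the plasmid held the antisense sequence of CRLM1. The labels call the CRLM1-OE cells a stable line. The study's results speak of transfection for this experiment, while its methods also describe a lentiviral pTSB-GFP-puro vector, transduction and puromycin selection. Which of these holds for these samples is not settled here. Every group carried a plasmid or vector, and a parental line without one was not analysed here. The sources used here do not state whether a line is 1 clone. The replicates are called biological, but separate derivations of the lines are not described, so p-values measure the spread between these samples.

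NRF2, the transcription factor encoded by NFE2L2, is held at a low level in unstressed cells by KEAP1, which presents it to a CUL3 ubiquitin ligase for degradation. Oxidants and electrophiles modify KEAP1, and NRF2 then accumulates, pairs with a small MAF protein and binds antioxidant response elements (AREs). Its known targets make glutathione, recycle thioredoxin and peroxiredoxins, supply NADPH and reduce quinones, and the pathway is known for protecting the intestinal epithelium and many carcinomas from oxidative damage. Because NRF2 is regulated mainly at the protein level, the NFE2L2 transcript is only a part of its control.

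The ARE core, written TGACNNNGC, was searched on both strands in the 1000 bases before each RefSeq start (build GRCh38.p14), together with the overlapping AP-1 site TGACTCA, since the 2 can share their first bases. GSR was not scanned, and the other 8 members have 11 annotated starts. An ARE core was found before 7 of the 11 starts, in 6 of the 8 genes, and it was also found before 31.9% of all 35116 starts. The AP-1 letters were found before 3 of the 11 starts and before 13.6% of all starts. The joined form TGACTCAGC was found before 1 of the 11 starts, that of NQO1, and before 1.42% of all starts. Neither motif was found before the 2 starts of NFE2L2, and no ARE core was found before the start of SRXN1. KEAP1 also has 2 starts, and an ARE core was found only before the downstream one, at chr19:10502771, to which its printed site refers. The site of each kind nearest to a start is printed here with 10 bases on each side, because NQO1, GCLM, TXNRD1, SRXN1, OSGIN1, KEAP1 and GCLC moved in different directions in the comparisons. Capitals mark the motif, and each sequence runs 5′ to 3′ along the strand on which the motif reads forward.
NQO1, ARE core with AP-1 site, 455 bases before the start, chr16:69727007-69727015, gene strand: gcagtcacagTGACTCAGCagaatctgag
GCLM, ARE core, 34 bases before the start, chr1:93909456-93909464, opposite strand: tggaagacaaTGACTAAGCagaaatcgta
TXNRD1, ARE core, 99 bases before the upstream start, chr12:104215680-104215688, gene strand: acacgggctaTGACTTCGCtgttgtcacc
TXNRD1, ARE core, 102 bases before the downstream start, chr12:104286930-104286938, opposite strand: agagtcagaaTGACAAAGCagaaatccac
KEAP1, ARE core, 31 bases before the start, chr19:10502794-10502802, opposite strand: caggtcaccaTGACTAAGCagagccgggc
OSGIN1, ARE core, 557 bases before the start, chr16:83952683-83952691, gene strand: agacaatctgTGACTTGGCcccagttttc
OSGIN1, AP-1 site, 97 bases before the start, chr16:83953143-83953149, gene strand: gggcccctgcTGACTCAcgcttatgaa
SRXN1, AP-1 site, 272 bases before the start, chr20:653466-653472, opposite strand: ccgggcgggcTGACTCAgggtgagttt
GCLC, ARE core, 870 bases before the start, chr6:53545963-53545971, opposite strand: aaatatgtgtTGACAGAGCaatgacctgt
A match is a description of these letters and not a shown binding site.

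Total counts ranged from 33302292 to 44514692 per sample, and 3 counts, taken as the smallest signal, equal 0.0674 to 0.0901 CPM (counts scaled to a common library size), a floor that covers counting error only. For CRLM1 itself, listed as RP4-710M16.2, 38704, 32751 and 35726 reads were counted in the CRLM1-OE group, 0 in each Ctrl sample, and 1951, 1777 and 1540 in the Anti group. Strand use in counting is not stated, so sense and antisense reads of CRLM1 cannot be told apart in the Anti group. All 7 colon epithelium markers were listed, with a summed FPKM (fragments per length of exon and depth of library) of 4849 to 4983 in CRLM1-OE, of 5520 to 5558 in Ctrl and of 4572 to 4627 for the Anti samples. Keratins made up most of this sum, with Ctrl means of 3235 for KRT19, 1406 for KRT8 and 785 for KRT18. CDX2 had a Ctrl mean of only 2.92 FPKM, and VIL1 was nearly absent at 0.02. The listed leukocyte markers (3 of 4) summed to 1.34 to 2.04 FPKM, the 4 fibroblast markers to 1.15 to 2.48, highest in CRLM1-OE, and the 3 endothelium markers to 0.03 to 0.11. COL1A1 made up nearly all of the fibroblast sum, with mean FPKM of 2.2 (CRLM1-OE), 1.2 (Ctrl) and 1.31 (Anti). COL1A2, COL3A1 and DCN had only 0 to 3 counts per sample. Of these, 2 had no read in any Ctrl sample and 1 had none in any Anti sample, which at so few reads does not separate the groups. The part of the fibroblast markers in the results was not tested.

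The members lie on different chromosomes of GRCh38, all as protein-coding genes in GENCODE version 44. NFE2L2 spans chr2:177218667-177392756, KEAP1 chr19:10486125-10503558, GCLC chr6:53497341-53616970, GCLM chr1:93885199-93909456, TXNRD1 chr12:104215779-104350307, SRXN1 chr20:646615-653200, NQO1 chr16:69706996-69726668 and OSGIN1 chr16:83931311-83966332. NQO1 and OSGIN1 share a chromosome. In that annotation, which is later than the one the reads were counted on, exons of HNRNPA3, an RNA-binding protein gene on the opposite strand, cover 23.4% of the exon bases of NFE2L2. HNRNPA3 had 4583 to 9384 counts per sample, and its log2 fold changes were -0.53 in CRLM1-OE against Ctrl, -0.83 against Anti and 0.27 in Anti against Ctrl. Those of NFE2L2 were -0.61, -0.49 and -0.14. With exon bases shared, the reads of HNRNPA3 and NFE2L2 may not be fully separate, which was not tested. A protein-coding gene on the same strand, not analysed here, covers 90.7% of the exon bases of SRXN1, and MLYCD covers 8.22% of those of OSGIN1. An antisense gene covers 19.4% of the exon bases of NQO1 and had 1 to 11 counts per sample.

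The FPKM values, which are set per exon length, place the members from abundant to modest. TXNRD1, the cytosolic thioredoxin reductase, was the highest member in every group, at 139 ± 3.85 FPKM in CRLM1-OE, at 185 ± 7.07 in Ctrl and at 202 ± 1.47 in Anti (SD, n = 3). GCLM, the modifier subunit of glutamate-cysteine ligase, was the lowest in every group, at 7.05 ± 0.107, 4.33 ± 0.340 and 5.47 ± 0.110 FPKM. In Ctrl the order was TXNRD1, SRXN1, NQO1, GSR, KEAP1, OSGIN1, NFE2L2, GCLC and GCLM, and the sample ranges of NQO1 and GSR overlapped, as did those of OSGIN1 and NFE2L2. In Anti the order differed only in that NQO1 stood before SRXN1, with overlapping ranges for that pair and for OSGIN1 and NFE2L2. In CRLM1-OE the order was TXNRD1, SRXN1, GSR, NQO1, OSGIN1, KEAP1, GCLC, NFE2L2 and GCLM, and no neighbours overlapped. Even GCLM in Ctrl lay above 74.7% of the genes with any FPKM in that group. The coefficient of variation within a group was between 0.660%, for SRXN1 in Ctrl, and 7.85%, for GCLM in Ctrl.

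**Figure D1:**
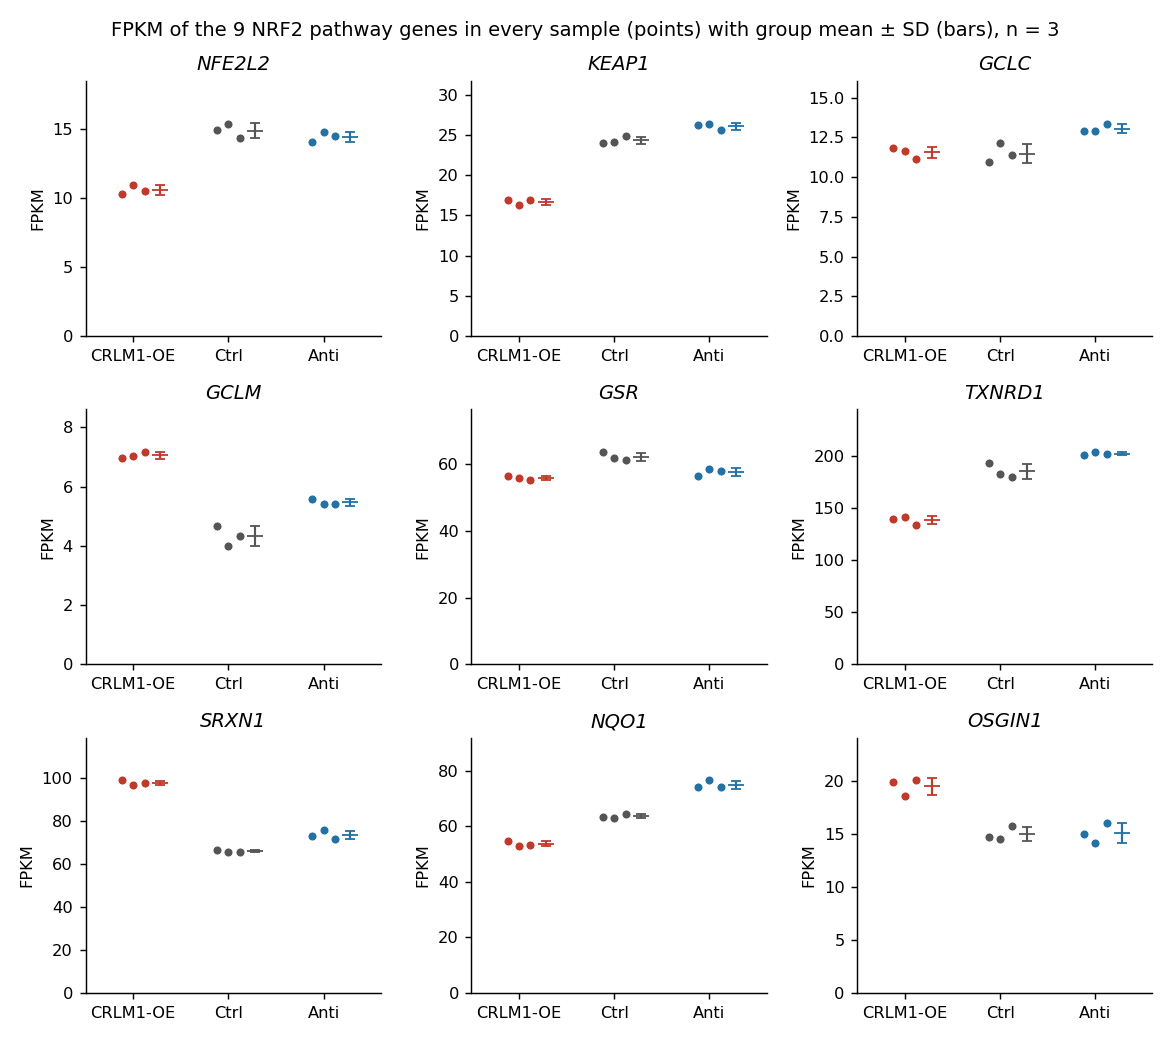
FPKM of each member (vertical axis, from 0) in the 9 samples, grouped as CRLM1-OE, Ctrl and Anti, with the group mean and SD beside the points. NFE2L2, KEAP1, TXNRD1 and NQO1 are lower in all 3 CRLM1-OE samples than in the other 6, GCLM, SRXN1 and OSGIN1 are higher, and GCLC overlaps between CRLM1-OE and Ctrl.

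The members did not share a direction when CRLM1 was overexpressed. Against Ctrl, GCLM, SRXN1 and OSGIN1 rose and NFE2L2, KEAP1, TXNRD1, NQO1, GSR and, by the smallest margin, GCLC fell. The same split of 3 higher and 6 lower members was found against Anti, a comparison that shares the CRLM1-OE samples with the other and is no separate evidence. Calls were made with edgeR's quasi-likelihood test at an adjusted p (Benjamini-Hochberg, over all genes tested) not above 0.05. In CRLM1-OE against Ctrl, 15.0% of all 29846 genes were called higher and 16.8% lower, while among the 4951 genes with at least the mean count of the least counted member 28.7% were higher and 48.7% lower. No member reached a 2-fold change, with edgeR, DESeq2 or limma. By edgeR, 3.41% of all genes were called at 2-fold, and 1.07% of those 4951 genes. In bulk RNA, a change in every cell and a change in the share of cells with the transcript cannot be told apart. The TMM-scaled CPM of the groups did not overlap for 8 of 9 members, as for 37.5% of all genes and 80.7% of the genes as deep as the members. The median log2 fold change was -0.27 over the members and -0.08 over those deep genes. Against Anti, 17.1% of all 30183 genes were called higher, 18.5% lower and 5.65% at 2-fold, with no member at 2-fold. Of the 4710 genes as deep as the members in that comparison, 39.1% were higher, 43.0% lower and 2.63% at 2-fold. In TMM-scaled CPM none of the 9 members overlapped between CRLM1-OE and Anti, as was found for 41.0% of all genes and 84.4% of the deep ones, although the FPKM of GSR did overlap. In Anti against Ctrl, 3 members were called higher, 2 lower, and 4 were not past the threshold, beside 11.5% higher, 12.2% lower and 1.06% at 2-fold of all 29714 genes. Of the 5470 genes as deep as the members in Anti against Ctrl, 24.5% were higher, 42.9% lower and 0.0548% at 2-fold. The TMM-scaled CPM did not overlap for 6 of 9 members there, as for 31.0% of all genes and 72.0% of the deep ones.

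The scale of the table matters for small changes. With total counts in place of edgeR's TMM factors, the median change on the log2 scale over every gene whose mean count was 100 or more moved from -0.04 to 0.10 in CRLM1-OE against Ctrl, from -0.04 to 0.02 against Anti, and from -0.01 to 0.10 in Anti against Ctrl. The calls over all genes moved with it, from 4462 higher and 5016 lower to 6649 and 2951 in CRLM1-OE against Ctrl, from 5164 and 5587 to 5957 and 4814 against Anti, and from 3406 and 3635 to 5500 and 2029 in Anti against Ctrl. The FPKM values follow the totals, so that a fold between FPKM values and a TMM-scaled fold differ by this shift.

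**Figure D2:**
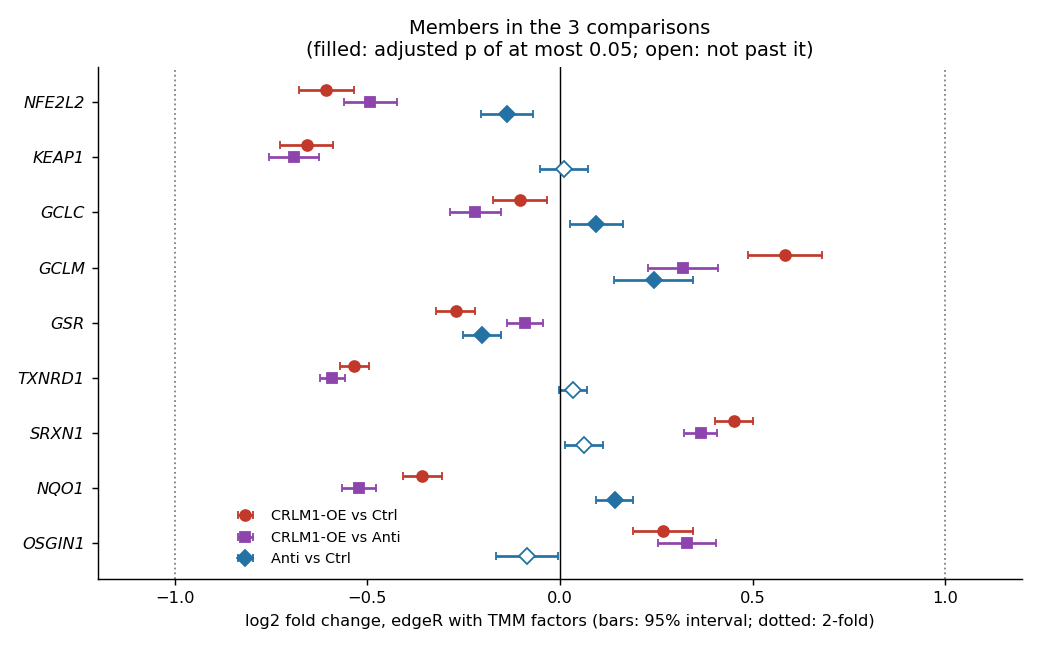
Log2 fold change of each member (horizontal axis, edgeR with TMM factors) in CRLM1-OE against Ctrl, CRLM1-OE against Anti and Anti against Ctrl, with bars for 95% intervals. Filled points passed an adjusted p of 0.05, and every point lies inside the dotted 2-fold lines, with the lowest at -0.69 (KEAP1 against Anti) and the highest at 0.58 (GCLM against Ctrl).

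The regulator and its inhibitor fell together in CRLM1-OE. NFE2L2 had 10.29, 10.98 and 10.54 FPKM in the CRLM1-OE samples, 14.94, 15.40 and 14.34 in Ctrl, and 14.04, 14.77 and 14.48 in Anti. All CRLM1-OE samples lay below all others. The TMM-scaled log2 fold change was -0.61 ± 0.0364 (SE) against Ctrl (edgeR adjusted p = 2.06e-60), a transcript level 34.3% lower, and -0.49 ± 0.0351 against Anti (edgeR adjusted p = 2.89e-43). NFE2L2 was also lower in Anti than in Ctrl, by a log2 fold change of -0.14 (edgeR adjusted p = 0.000397), but with total counts the value was -0.03 and no longer past the threshold.

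KEAP1 had 16.87, 16.27 and 16.88 FPKM in CRLM1-OE, 24.04, 24.13 and 24.80 in Ctrl, and 26.23, 26.41 and 25.61 in Anti. Its fall was the largest among the members in each CRLM1-OE comparison, although its interval overlapped that of NFE2L2 against Ctrl, at -0.66 ± 0.0350 against Ctrl (edgeR adjusted p = 6.42e-77) and -0.69 ± 0.0327 against Anti (edgeR adjusted p = 4.27e-97). Anti and Ctrl differed in KEAP1 by 0.01 on the log2 scale (95% interval -0.05 to 0.07, edgeR adjusted p = 0.863), while total counts gave 0.12 and a call.

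The ratio of NFE2L2 to KEAP1 within a sample does not depend on how samples are scaled. It was 0.610, 0.675 and 0.624 in CRLM1-OE, 0.622, 0.638 and 0.578 in Ctrl, and 0.535, 0.559 and 0.565 in Anti. CRLM1-OE overlapped with Ctrl (exact permutation p = 0.5, two-sided), whereas Anti lay below the other groups. In all 6 ratio comparisons were made, and with 3 samples against 3 the exact permutation test cannot go below 0.1, which is the p of Anti against Ctrl and of CRLM1-OE against Anti (adjusted 0.15).

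For the ligase that limits glutathione synthesis, the transcript of the modifier subunit rose in both CRLM1-OE comparisons. GCLM had 6.96, 7.03 and 7.17 FPKM in CRLM1-OE, 4.67, 3.99 and 4.34 in Ctrl, and 5.60, 5.42 and 5.40 in Anti, and the 3 groups did not overlap. GCLM rose by 0.58 ± 0.0490 on the log2 scale against Ctrl (edgeR adjusted p = 2.53e-31), the largest rise among the members, and by 0.32 ± 0.0460 against Anti (edgeR adjusted p = 2.74e-11). It was also higher in Anti than in Ctrl, by 0.24 ± 0.0522 (edgeR adjusted p = 2.78e-05).

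GCLC, the catalytic subunit, had 11.84, 11.68 and 11.16 FPKM in CRLM1-OE, 10.94, 12.13 and 11.40 in Ctrl, and 12.89, 12.88 and 13.38 in Anti. The CRLM1-OE and Ctrl samples overlapped. The TMM-scaled change was -0.10 ± 0.0363 (edgeR adjusted p = 0.0148), but with total counts it was 0.04 and not past the threshold. Without Ctrl replicate 2 it was -0.05, and it stayed negative whichever sample was left out. The direction for GCLC against Ctrl therefore rests on the scaling, and the size of the change on single samples as well. Against Anti GCLC fell by 0.22 on the log2 scale (edgeR adjusted p = 4.11e-10). Anti exceeded Ctrl by 0.09 (edgeR adjusted p = 0.0342), a call that was lost without Ctrl replicate 1 (0.06) and when any 1 Anti sample was left out (0.08 to 0.10).

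The GCLC to GCLM ratio was 1.70, 1.66 and 1.56 in CRLM1-OE, 2.34, 3.04 and 2.63 in Ctrl, and 2.30, 2.38 and 2.48 in Anti. It was lower in all CRLM1-OE samples, at 1.64 ± 0.0747 (SD, n = 3), than in Ctrl, at 2.67 ± 0.351, or in Anti, at 2.39 ± 0.0883, with the smallest exact permutation p that the design allows, 0.1 (adjusted 0.15). Anti and Ctrl overlapped in this ratio (exact permutation p = 0.3).

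GSR, the reductase that returns oxidised glutathione to its reduced form with NADPH, had 56.44, 55.72 and 55.28 FPKM in CRLM1-OE, 63.62, 61.74 and 61.25 in Ctrl, and 56.29, 58.59 and 58.02 in Anti. It was the highest in Ctrl. Compared with Ctrl, GSR fell in CRLM1-OE by 0.27 ± 0.0257 on the log2 scale (edgeR adjusted p = 1.14e-24) and in Anti by 0.20 ± 0.0253 (edgeR adjusted p = 3.3e-14). The fall against Anti was -0.09 (edgeR adjusted p = 0.000381), the FPKM of CRLM1-OE and Anti overlapped, and with total counts the change was -0.03 and not past the threshold.

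The thioredoxin arm held a large fall beside a large rise. TXNRD1, which reduces thioredoxin with NADPH, had 139.87, 141.69 and 134.30 FPKM in CRLM1-OE, 193.24, 183.22 and 179.60 in Ctrl, and 201.20, 203.93 and 201.60 in Anti. TXNRD1 fell by 0.53 ± 0.0193 on the log2 scale against Ctrl (edgeR adjusted p = 8.28e-166) and by 0.59 ± 0.0165 against Anti (edgeR adjusted p = 5.16e-276). Anti differed from Ctrl by 0.03 (95% interval -0.0021 to 0.07, edgeR adjusted p = 0.207), and by 0.06 with a call without Ctrl replicate 1.

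SRXN1, or sulfiredoxin, which restores overoxidised peroxiredoxins, had 99.07, 96.95 and 97.71 FPKM in CRLM1-OE, 66.66, 65.88 and 65.93 in Ctrl, and 73.18, 75.79 and 71.95 in Anti. The 3 groups did not overlap. SRXN1 rose by 0.45 ± 0.0248 on the log2 scale against Ctrl (edgeR adjusted p = 7.08e-72) and by 0.37 ± 0.0220 against Anti (edgeR adjusted p = 2e-60). Anti exceeded Ctrl by 0.06 (95% interval 0.01 to 0.11, edgeR adjusted p = 0.0518), just outside the threshold. Of 14 alternatives in scaling, test or samples left out, only 3 also left it outside. The others called it, among them total counts at 0.17.

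The TXNRD1 to SRXN1 ratio, chosen after the values were seen and given without a test, was 1.41, 1.46 and 1.37 in CRLM1-OE, 2.90, 2.78 and 2.72 in Ctrl, and 2.75, 2.69 and 2.80 in Anti. The Ctrl and Anti samples overlapped, and the CRLM1-OE samples stood well below them. The NQO1 to GCLM ratio, chosen in the same way, was 7.63 ± 0.222 in CRLM1-OE, compared with 14.8 ± 1.11 in Ctrl and with 13.7 ± 0.452 in Anti (SD, n = 3).

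**Figure D3:**
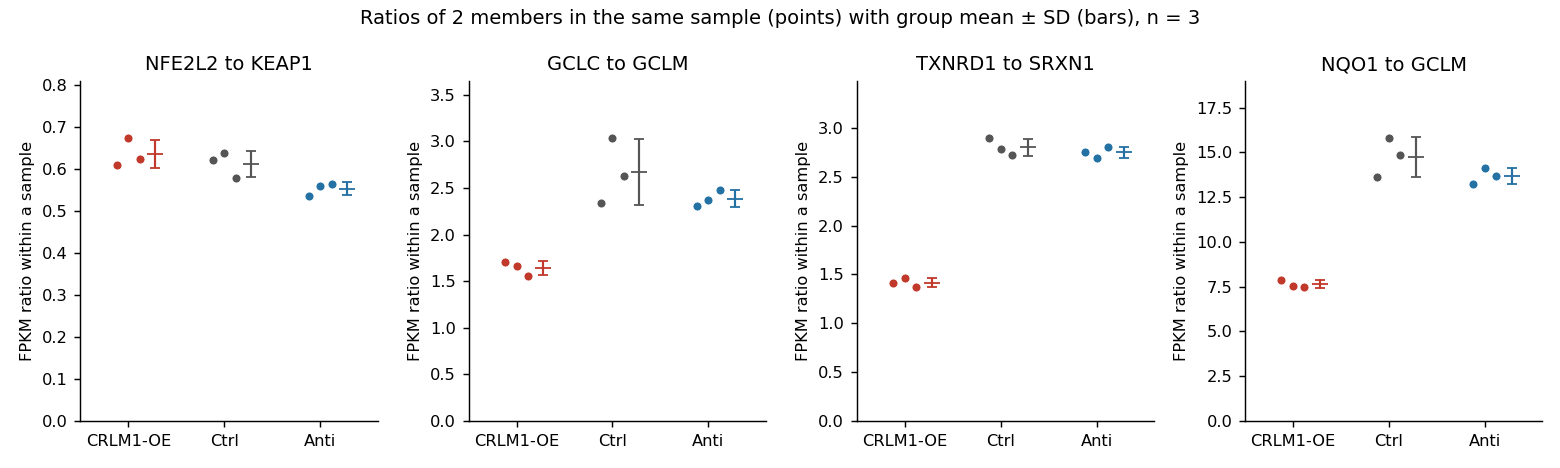
Ratio of the FPKM of 2 members within the same sample (vertical axis, from 0) for NFE2L2 to KEAP1, GCLC to GCLM, TXNRD1 to SRXN1 and NQO1 to GCLM, with the group mean and SD beside the points. The last 3 ratios are lower in every CRLM1-OE sample than in any other sample, whereas the CRLM1-OE and Ctrl samples overlap in the first.

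NQO1, the quinone reductase often read as an indicator of NRF2 activity, had 54.83, 53.06 and 53.45 FPKM in CRLM1-OE, 63.53, 63.13 and 64.38 in Ctrl, and 74.01, 76.52 and 74.00 in Anti. The 3 groups did not overlap, with CRLM1-OE lowest and Anti highest. NQO1 fell by 0.36 ± 0.0258 on the log2 scale against Ctrl (edgeR adjusted p = 2.41e-42) and by 0.52 ± 0.0228 against Anti (edgeR adjusted p = 4.48e-114), and Anti exceeded Ctrl by 0.14 ± 0.0245 (edgeR adjusted p = 9.12e-08).

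OSGIN1, an oxidative stress-induced growth inhibitor, had 19.91, 18.58 and 20.04 FPKM in CRLM1-OE, 14.75, 14.51 and 15.72 in Ctrl, and 14.95, 14.17 and 16.07 in Anti. It rose by 0.27 ± 0.0394 on the log2 scale against Ctrl (edgeR adjusted p = 9.3e-11) and by 0.33 ± 0.0381 against Anti (edgeR adjusted p = 4.37e-17). Ctrl and Anti overlapped, and the change of -0.08 (95% interval -0.17 to -0.0041, edgeR adjusted p = 0.139) became 0.02 with total counts and passed the threshold at -0.13 without Anti replicate 3.

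**Figure D4:**
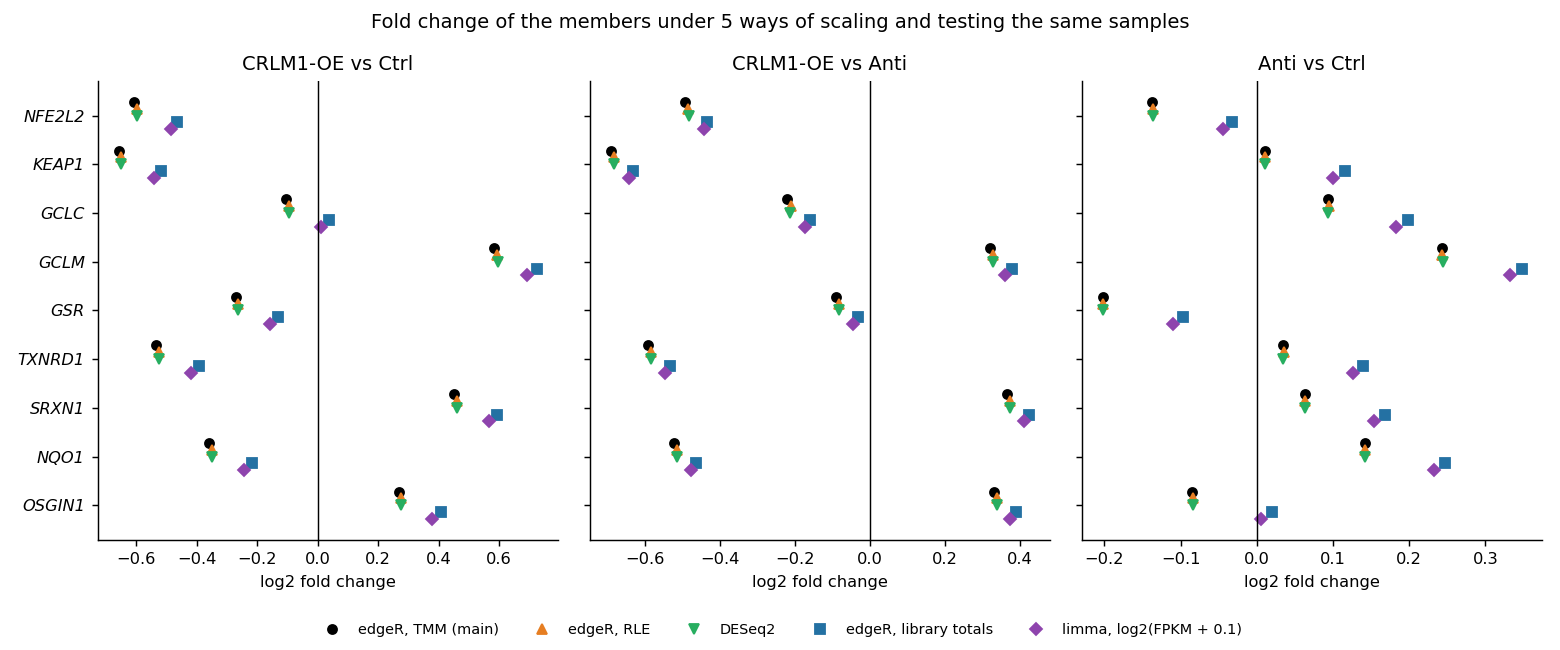
Log2 fold change of each member (horizontal axis) in the 3 comparisons under edgeR with TMM factors, RLE factors or library totals, DESeq2, and limma on log2(FPKM + 0.1). Library totals and FPKM shift all members to the right, which carries GCLC in CRLM1-OE against Ctrl from -0.10 to 0.04 and OSGIN1 in Anti against Ctrl from -0.08 to 0.02, while the other members of CRLM1-OE against Ctrl stay on their side of 0.

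Outside the members, 94 genes of 7 role lists of the pathway were read in the same fits, and 93 of them were listed. Of the 92 tested in CRLM1-OE against Ctrl, 21 rose, 32 fell and 39 were not past the threshold, with a median log2 fold change of -0.04. These are 22.8% and 34.8% of the list genes, beside 15.0% and 16.8% of all genes tested, whose median was 0.02, and beside 29.2% and 38.8% of the genes with a mean count of 100 or more. Total counts turned the balance of the lists to 43 higher and 20 lower, with 22.3% of all genes higher and 9.89% lower. Of the 92 tested against Anti, 32 rose and 35 fell, with a median of -0.0046. That is 34.8% and 38%, beside 17.1% and 18.5% of all genes (median -0.02) and 33.9% and 40.2% of those with a mean count of at least 100, and total counts turned it to 38 higher and 29 lower. In Anti against Ctrl 21 of 93 rose and 30 fell, with a median of -0.07. That is 22.6% and 32.3%, beside 11.5% and 12.2% of all genes (median 0.0047) and 25.3% and 28.9% of those with such a count, and total counts turned it to 30 higher and 22 lower. The balance of rises and falls over the lists therefore rests on the scaling in each comparison. No list gene was called at 2-fold in Anti against Ctrl by edgeR, DESeq2 or limma. The 2-fold rule was met by 4 genes against Ctrl and 5 against Anti, and GSTM2, which is among them each time, has a mean count of only 8.83 and 9.17 and is named because its values were seen. The largest rise or fall of a list, as named for the lists that follow, is the largest among called genes whose mean count was 100 or more.

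Among regulators and partners, 6 of 13 rose and 4 fell against Ctrl, with 9 higher and 3 lower by total counts, and 6 rose and 5 fell against Anti by either scaling. BACH2, a repressor that binds the same kind of element with small MAF proteins, had 0.99, 0.89 and 0.96 FPKM in CRLM1-OE, 0.37, 0.41 and 0.29 in Ctrl, and 0.34, 0.35 and 0.40 in Anti. It rose by 1.29 on the log2 scale against Ctrl (edgeR adjusted p = 1.45e-34) and by 1.34 against Anti (edgeR adjusted p = 6.4e-38), from a low level in the controls. The small MAF genes MAFF, MAFG and MAFK were called higher too, by 0.25, 0.48 and 0.78 against Ctrl. Against Anti they rose by 0.54, 0.18 and 0.65. BACH1, a relative of BACH2, rose by 0.19 against Ctrl and was not called against Anti (-0.10). These 4 genes were named after their values were seen. PALB2, a DNA repair protein that can bind KEAP1, had the largest fall of this list, at -0.50 against Ctrl and -0.95 against Anti, and the call against Ctrl was lost with limma on FPKM.

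In the glutathione list 2 of 27 rose and 11 fell against Ctrl, although total counts gave 10 higher and 4 lower, and 6 of 26 rose and 11 fell against Anti, where total counts gave 9 higher and 8 lower. SLC7A11, the cystine importer that feeds glutathione synthesis, had 1.71, 1.60 and 1.69 FPKM in CRLM1-OE, 5.09, 4.79 and 4.80 in Ctrl, and 7.50, 7.49 and 7.24 in Anti. It fell by 1.67 on the log2 scale against Ctrl (edgeR adjusted p = 1.77e-257) and by 2.19 against Anti (edgeR adjusted p = 1e-300), while it was 0.51 higher in Anti than in Ctrl. MGST3, a microsomal glutathione S-transferase, had the largest rise among genes with a mean count of 100 or more, at 0.31 and 0.52, below the values of GSTM2, a cytosolic glutathione S-transferase with few reads, at 1.76 and 1.59 (edgeR adjusted p = 0.0042 and 0.00674). Those calls of GSTM2 were lost with DESeq2 (adjusted p = 0.0548 and 0.0598), with limma on FPKM, without CRLM1-OE replicate 1 (1.24 and 1.07), against Ctrl without Ctrl replicate 1 (1.24) and against Anti without Anti replicate 3 (1.29).

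Of the 7 heme and iron genes 4 rose and 1 fell against Ctrl, the same numbers as with total counts, and 4 rose and 2 fell against Anti, again by either scaling. HMOX1, the heme oxygenase that NRF2 activates and BACH proteins repress, had 64.36, 65.27 and 63.11 FPKM in CRLM1-OE, 19.57, 19.75 and 19.63 in Ctrl, and 25.87, 25.40 and 24.28 in Anti. It rose by 1.60 on the log2 scale against Ctrl (edgeR adjusted p = 1e-300) and by 1.30 against Anti (edgeR adjusted p = 1e-300). The ferritin chains parted. The light chain FTL, at 5951.78, 6005.66 and 5964.55 FPKM in CRLM1-OE against 3988.52, 4055.22 and 4102.47 in Ctrl, rose by 0.45, whereas the heavy chain FTH1 fell by 0.41 on the log2 scale. Against Anti FTL rose by 1.01, just past 2-fold, and FECH, which inserts iron into protoporphyrin to form heme, showed the largest fall at -0.46. In Anti against Ctrl FTL fell by 0.58 on the log2 scale.

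**Figure D5:**
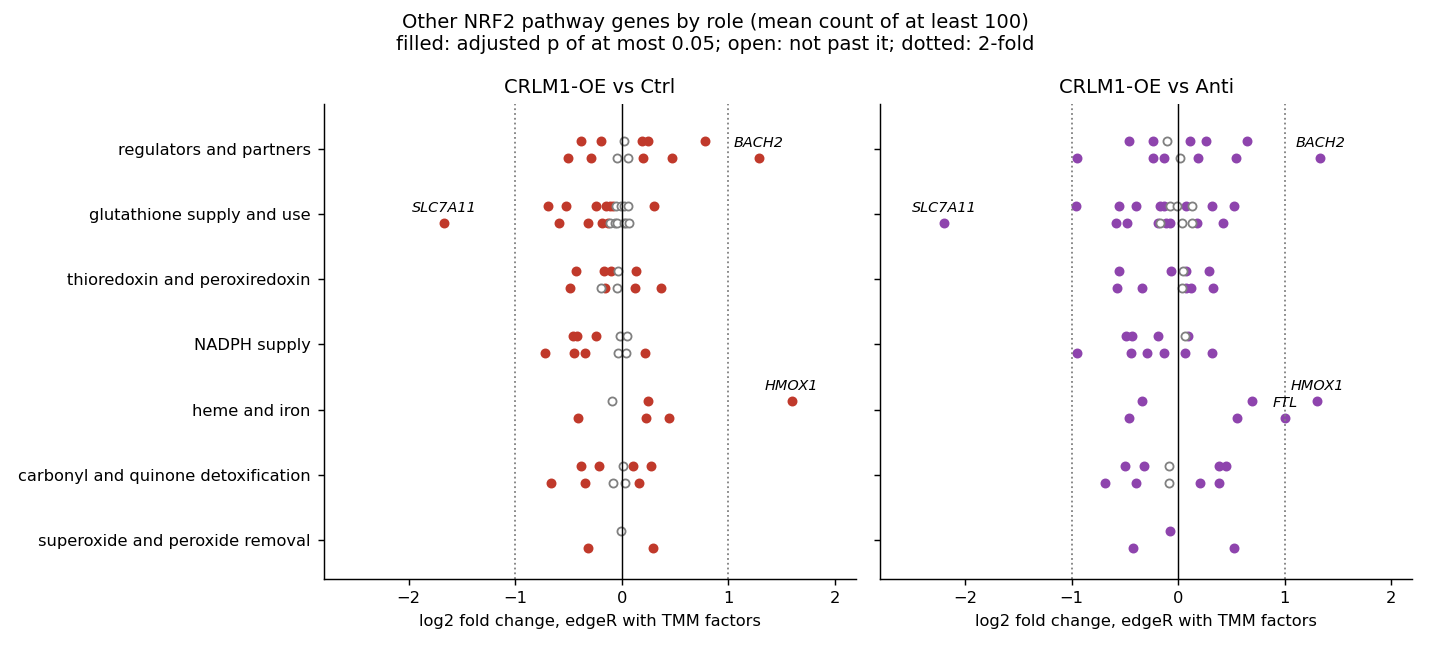
Log2 fold change (horizontal axis, edgeR with TMM factors) of the other pathway genes (mean count 100 or more), by role list (rows), in CRLM1-OE against Ctrl and against Anti. Filled points passed an adjusted p of 0.05, and BACH2, HMOX1, FTL and SLC7A11 are the genes beyond the dotted 2-fold lines, FTL only against Anti.

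In the thioredoxin and peroxiredoxin list 4 of 13 genes rose and 5 fell against Ctrl, a balance that total counts turned to 6 higher and 2 lower. Against Anti 6 rose and 4 fell, or 8 and 3 by total counts. SESN2, a stress-induced sestrin, rose by 0.37 against Ctrl and 0.33 against Anti. TXNRD2, the mitochondrial thioredoxin reductase, had the largest fall against Ctrl at -0.49, and its relative TXNRD3 the largest against Anti at -0.57. NADPH supply held 1 rise and 6 falls among 12 genes against Ctrl, and 3 rises and 7 falls against Anti. MTHFD2, a mitochondrial folate enzyme, fell by 0.72 on the log2 scale against Ctrl and by 0.95 against Anti, while NADK, which makes NADP, rose by 0.22 against Ctrl and IDH2 by 0.32 against Anti. Total counts gave 5 higher and 6 lower for this list against Ctrl, and 4 higher and 6 lower against Anti.

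Among 16 tested genes of carbonyl and quinone detoxification 3 rose and 4 fell against Ctrl, which total counts turned to 7 higher and 3 lower. Against Anti 6 rose and 4 fell by either scaling. NQO2, a relative of NQO1 that uses another cofactor, rose by 0.27 against Ctrl and 0.45 against Anti, opposite in sign to NQO1. TRIM16L had the largest fall, at -0.66 and -0.69. Of the 4 genes that remove superoxide and peroxide, catalase (CAT) rose by 0.29 and 0.53 and mitochondrial SOD2 fell by 0.32 and 0.42 on the log2 scale. In Anti against Ctrl, the largest fall within each role list, beside FTL for heme and iron, was found for GLRX at -0.58, PTGR1 at -0.39, IDH2 at -0.37, MAFF at -0.31, CAT at -0.26 and TXN2 at -0.26. Other genes of some lists fell more than the last of these, among them BLVRB, a biliverdin reductase, at -0.47. The largest rise within each list that held one, beside SLC7A11 for glutathione, was found for PALB2 at 0.43, TXNRD3 at 0.35, FECH at 0.35, IDH1 at 0.32 and UGDH at 0.16, while NFE2L3, a relative of NFE2L2, rose by 0.41 behind PALB2 in its list. The calls of CAT and PALB2 in Anti against Ctrl were lost with both limma fits on FPKM, and that of PALB2 also without Anti replicate 2. BLVRB and NFE2L3 were named after their values were seen.

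The genes whose TMM-scaled log2 CPM followed a member most closely over the 9 samples were ranked among the 11702 genes whose mean count reached 100. The 9 points fall into 3 groups, so that a high r mainly reflects the same order of the group means. For NFE2L2 these were TAF4B (r = 0.997), ZFP36L1 (r = 0.997) and RTN3 (r = 0.995), for NQO1 VWA8 (r = 0.997), IRAK1 (r = 0.997) and TSTA3 (r = 0.997), for GCLM FAM160B1 (r = 0.989), UBE2O (r = 0.989) and C1orf116 (r = 0.987), and for SRXN1 SPTAN1 (r = 0.998), TBX3 (r = 0.997) and NBEAL2 (r = 0.995). None of these 12 genes is in the pathway lists.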

How the data were processed

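Per the labels and the methods, the authors removed adaptors and bases of low quality (FASTX-Toolkit), discarded reads shorter than 16 nt, mapped the rest to GRCh38 with TopHat2 at up to 4 mismatches and counted uniquely mapped reads on Gencode version 23. The deposited counts are whole numbers that were not normalized. FPKM values, deposited to 2 decimals, are scaled for exon length and mapped fragments. Strand use and the criterion for an expressed gene are not given in the sources used here.

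The quasi-likelihood test of edgeR 4.0.16 (R 4.3.3, TMM factors) was fitted to the 6 samples of each comparison, for genes with 1 or more counts there, and p-values were adjusted by Benjamini-Hochberg over these genes. Adjusted p below 1e-300 is written as 1e-300. Members are read at an adjusted p of at most 0.05, and 2-fold calls are counted apart. Named list genes are the largest rise and fall of each list with a mean count of at least 100, and 2-fold calls with such a count. For 4 members, the 3 genes of highest Pearson r over the 9 samples are named. The members and lists were chosen with earlier results of these data known. The edgeR, DESeq2 1.42.0 and limma 3.58.1 fits were tested on simulated data. Figures were drawn with matplotlib 3.10.9. Sequences are from RefSeq, GRCh38.p14, where all 35116 promoter entries matched the genome.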

Additional observations from a re-analysis of the deposited data

How the results depend on the processing

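Each member's log2 fold change was recomputed under 14 alternatives, in 378 values over 27 results, of which 337 kept their direction and their side of the threshold, 19 passed it anew, 15 no longer passed it and 7 changed sign. The changes lie in 2 results of CRLM1-OE (GCLC against Ctrl, GSR against Anti) and 6 of Anti against Ctrl (NFE2L2, KEAP1, GCLC, TXNRD1, SRXN1, OSGIN1). With library totals, limma on log2(FPKM + 0.1) and limma on log2(FPKM + 1), in that order, GCLC in CRLM1-OE against Ctrl was 0.037, 0.0095 and 0.0088 and GSR against Anti was -0.033, -0.046 and -0.045. In Anti against Ctrl the same 3 settings gave -0.033, -0.045 and -0.042 for NFE2L2, 0.12, 0.10 and 0.10 for KEAP1, 0.14, 0.13 and 0.13 for TXNRD1, 0.17, 0.15 and 0.15 for SRXN1, and 0.020, 0.0056 and 0.0054 for OSGIN1. These settings skip the TMM factors, and all genes shift with the members. DESeq2 gave -0.10 for GCLC in CRLM1-OE against Ctrl and 0.094 in Anti against Ctrl, both not past the threshold (adjusted p = 0.0854 and 0.0961), and 0.064 for SRXN1 in Anti against Ctrl, past it. SRXN1 in Anti against Ctrl was also called with RLE factors (0.064), filterByExpr (0.066) and all 9 samples in 1 fit (0.070).

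Leaving out 1 sample at a time, CRLM1-OE against Ctrl ranged from -0.14 to -0.054 for GCLC. Anti against Ctrl ranged from -0.0023 (without Anti replicate 2, a change of sign) to 0.033 for KEAP1, from 0.056 to 0.15 for GCLC, from 0.021 to 0.064 for TXNRD1, from 0.038 to 0.085 for SRXN1 and from -0.13 to -0.042 for OSGIN1.

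A 2-fold rule beside the adjusted p leaves 0 members higher and 0 lower in each comparison. In Anti against Ctrl 6 members were higher and 1 lower with totals and with either limma fit. Over all genes, 18.5% were higher and 6.83% lower there with totals. The shares were 12.9% and 6.02% with limma on log2(FPKM + 0.1), and 12.9% and 5.96% with limma on log2(FPKM + 1), so the whole table tips the same way. Of the list genes in CRLM1-OE against Ctrl, 43 were higher and 20 lower with totals, 32 and 19 with limma on log2(FPKM + 0.1), and 31 and 19, with 2 at 2-fold, with limma on log2(FPKM + 1). Against Anti these 3 settings gave 38 and 29, 32 and 29, and 31 and 28, the last with 3 at 2-fold, and in Anti against Ctrl 30 and 22, 29 and 20, and 29 and 19, so that rises exceeded falls in each, the reverse of TMM.

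With the replicate number as a replicate block, the change was -0.61 for NFE2L2, -0.66 for KEAP1 and 0.58 for GCLM in CRLM1-OE against Ctrl, and no member call changed. Samples of the same number had deviation correlations of -0.0749 to 0.0782 over 12941 genes, so that the numbers are not taken to pair the samples. The direction or the call of small changes, such as those of GCLC against Ctrl and of NFE2L2 and OSGIN1 in Anti against Ctrl, depends on the scaling, and FPKM to 2 decimals limits low genes such as BACH2.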
